A study of Homo sapiens with 24 samples.

Results

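Untreated SCC-61 cells, a head and neck squamous cell carcinoma line, were compared with untreated HaCaT cells, an immortalized line of human skin keratinocytes that is not tumorigenic, at 24 h. The comparison used 3 SCC-61 arrays and 3 HaCaT arrays out of 24 Illumina bead arrays in the series, and every probe detected (detection p under 0.05) on all 3 arrays of either line. This gave 19576 of 47323 probes, which carry the names of 11523 genes, of 20046 genes named on the array. The other 18 arrays hold the same lines at 2 h and with the stomach protein AMP-18 (gastrokine 1) at 2 µg/ml, and were used for the shared estimate of the spread and for values set beside those at 24 h. Both lines were starved in low-serum medium before the untreated period. Before that SCC-61 was grown in DMEM/F12 with hydrocortisone and serum, and HaCaT in DMEM with serum, so the line and its growth medium cannot be told apart. Each group is 1 cell line, and nothing in the labels says that the 3 arrays came from separate cultures, so the p-values measure only the spread between these samples, which may be technical.

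Keratinocytes of stratified epithelium express the keratin pair KRT5 and KRT14 in the basal layer and switch to other keratins and to proteins of the cornified envelope as they differentiate. Simple epithelia use KRT7, KRT8, KRT18 and KRT19 instead, and squamous carcinomas can mix these programmes. Injured or inflamed squamous epithelium is known to make S100A8 and S100A9, antimicrobial peptides, cytokines and, under interferon, a large set of antiviral genes. All signals below are log2 values of 1 probe per gene (of the detected ones, that with the brightest mean in the series), and a difference is SCC-61 minus HaCaT, given with its standard error. One unit is a doubling. In bulk RNA of this kind, fewer cells of a type and less RNA per cell cannot be told apart.

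The lines differed over most of the genes measured. By limma with Benjamini-Hochberg adjustment (threshold 0.05), 13736 of 19576 probes (70.2%) differed at 24 h, 6291 (32.1%) higher and 7445 (38%) lower in SCC-61. Over genes, 8530 of 11523 (74%) differed, 4066 (35.3%) higher and 4464 (38.7%) lower. The balance of directions rested on the scaling: of the called probes 45.8% were higher as reported, and 50.7% (6935 higher and 6737 lower) under cyclic loess normalization. Most differences were small: 6133 of the called genes differed by no more than 2-fold. Among the 2397 genes past 2-fold, 1354 (11.8%) were higher and 1043 (9.05%) lower, and among larger differences 149 genes were higher and 68 lower by over 8-fold, and 26 higher and 12 lower by over 32-fold. The median difference over all genes was -0.04, so a list of genes is read below against shares of 35.3% higher and 38.7% lower. The arrays of the lines did not overlap for 75.2% of genes. Of 3074 genes with several tested probes, 137 had probes called in opposite directions, and such a gene is named below with both values.

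Detection separated a smaller set. In all 9844 genes were detected on all 6 arrays, 436 on the 3 SCC-61 arrays and no HaCaT array, 273 on the 3 HaCaT arrays and no SCC-61 array, and 970 on all arrays of one line and some of the other. A gene detected in one line only has a lower bound in place of a fold, written "at least": the mean of the detected line over the probe's own value in the other line or the dimmest detected signal there, whichever is brighter. Probes just inside the rule, detected on all arrays of only one line, numbered 3587 and had a median signal of 4.77 in their brighter line. The 2395 probes just outside, detected on 2 arrays of either line and on 3 of neither, had 4.42. Each array of the series detected 18767 to 22161 probes (39.7% to 46.8%), and having 3 arrays per group limits how precisely any difference is known.

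**Figure D1:**
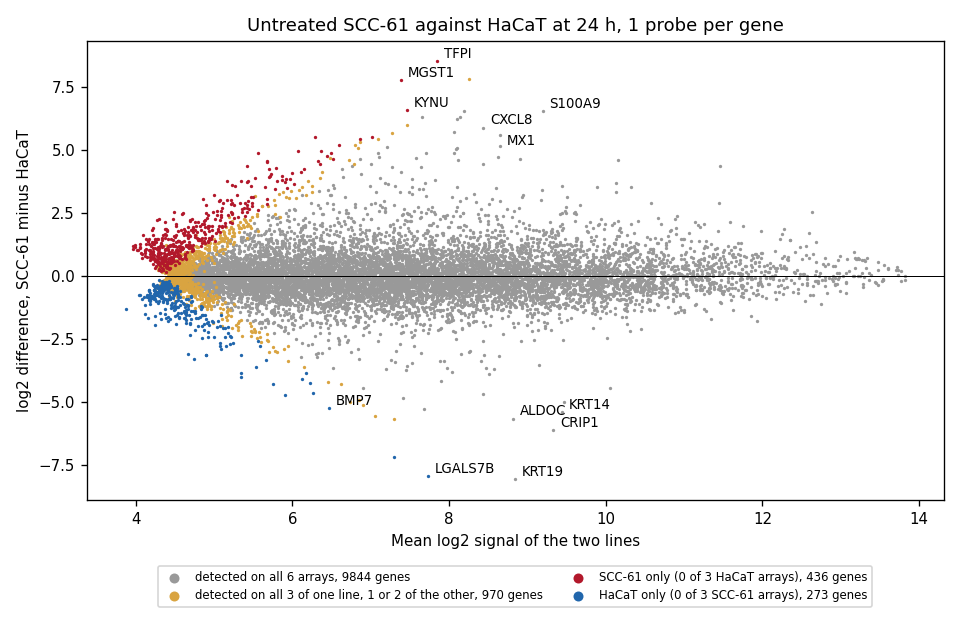
Difference between untreated SCC-61 and HaCaT at 24 h (log2, vertical axis) against the mean log2 signal of both lines (horizontal axis), 1 point per gene and coloured by detection. Colours separate the 436 genes detected only in SCC-61 and the 273 detected only in HaCaT, and KRT19 (-8.08) and S100A9 (6.53) are the extremes among genes detected on all 6 arrays.

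Both lines carried the markers of squamous keratinocytes. Of 20 defining squamous markers 16 had a probe, and all 16 were detected on every array of both lines, with a summed linear signal of 21030 to 21760 in SCC-61 and 29460 to 31530 in HaCaT. TP63, KRT6A and KRT17 were not analysed here. Among markers of other cell types, PTPRC, CD3D, CD3E and CD2 of leukocytes, PECAM1 and KDR of endothelium, and MLANA and TYR of melanocytes were below the detection rule in both lines. Of 10 endothelial markers 2 were tested and both were lower in SCC-61, CDH5 (-1.02) and VWF (detected only in HaCaT), with sums of 160 to 166 in SCC-61 and 257 to 279 in HaCaT. Of 10 neural markers 3 were tested and all 3 were lower in SCC-61, TUBB3 (-3.01), MBP (-1.68) and NEFL (-1.19), with sums of 638 to 662 in SCC-61 and 2240 to 2546 in HaCaT.

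KRT14, the basal partner of KRT5, gave 6.67, 6.79 and 6.74 in SCC-61, against 12.11, 12.13 and 12.24 in HaCaT, a difference of -5.42 ± 0.06 (SE, n = 3 each, adjusted p 5.91e-33). KRT5 itself gave 10.47, 10.70 and 10.64 in SCC-61, against 11.61, 11.66 and 11.88 in HaCaT, so it fell by 1.11. The pair was therefore unequal in the carcinoma line: KRT5 kept a bright signal on all 3 arrays while KRT14 was far dimmer than in HaCaT. KRT15 was lower too (-0.99). The probes of the stress keratin KRT16 disagreed, the brighter one lower (-1.84) and the other higher (1.56), each called. KRT6C was detected only in SCC-61 (9.22, 9.19 and 9.17), although its probe may share signal with near-identical KRT6A. By the brightest probe of each gene 4 of 5 basal and stress keratins tested were lower, KRT16 among them, and 1 was higher.

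Among keratins of simple and mucosal epithelium, 5 of 7 were lower and 2 higher by the brightest probe, with a median of -3.38. KRT19 was the most reduced gene detected on all 6 arrays. It gave 4.75, 4.73 and 4.94 in SCC-61, against 12.84, 12.91 and 12.92 in HaCaT, a difference of -8.08 ± 0.09 (adjusted p 1.13e-32). KRT7 gave 5.07, 5.12 and 4.96 in SCC-61, against 10.27, 10.23 and 10.47 in HaCaT. No array of one line came near those of the other for either gene. KRT8 was lower (-3.38), as was the mucosal keratin KRT4 (-5.66, detected on 2 of 3 SCC-61 arrays). KRT18, which pairs with KRT8, has probes called in opposite directions (0.99 by the brighter and -0.83 by the other). KRT80 was higher (1.01).

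Acute-phase and antimicrobial genes were among those with the largest positive differences. S100A9 and S100A8 together form calprotectin. S100A9 gave 12.50, 12.39 and 12.49 in SCC-61, against 5.87, 5.92 and 6.0 in HaCaT, a difference of 6.53 ± 0.06 (adjusted p 5.47e-34). S100A8 gave 11.33, 11.27 and 11.28 in SCC-61, against 5.28, 4.92 and 4.79 in HaCaT. The acute-phase apolipoprotein SAA1 gave 10.74, 10.82 and 10.88 in SCC-61, against 4.41, 4.57 and 4.53 in HaCaT, a difference of 6.31 ± 0.07. SCC-61 was bright and HaCaT dim for all 3 genes, with no overlap. SAA1 and its neighbour SAA2 (detected only in SCC-61, at least 7.71-fold higher) are near-identical and their signals cannot be fully separated.

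All 14 of 14 tested acute-phase and antimicrobial genes were higher, against 35.3% of all genes, with a median of 3.45 (3.03 with genes detected only in SCC-61 at their bounds). PI3, the elastase inhibitor elafin, differed by 4.61, LCN2, an iron-siderophore binder, by 4.36, and SLPI, another protease inhibitor, by 3.12. The antimicrobial peptides DEFB1 (1.47) and RNASE7 (1.59) were smaller members. A further 11 genes of the list with a probe were not detected by the rule. Other S100 proteins went the other way: S100A4 (-3.67), S100A2 (-1.97), S100A14 (-1.95) and S100A13 (-1.68) were lower, so that of 13 S100 genes 4 were higher and 8 lower. S100A8 and S100A9 are also abundant in myeloid cells. Of 14 leukocyte markers with a probe 5 to 7 were detected per SCC-61 array and 3 to 5 per HaCaT array, summing to 1193 to 1275 in SCC-61 and 391 to 416 in HaCaT. CD68 (2.91), which lysosomes of many cells carry, was the largest of them, and the defining PTPRC, LYZ, TYROBP and FCER1G were below the detection rule.

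**Figure D2:**
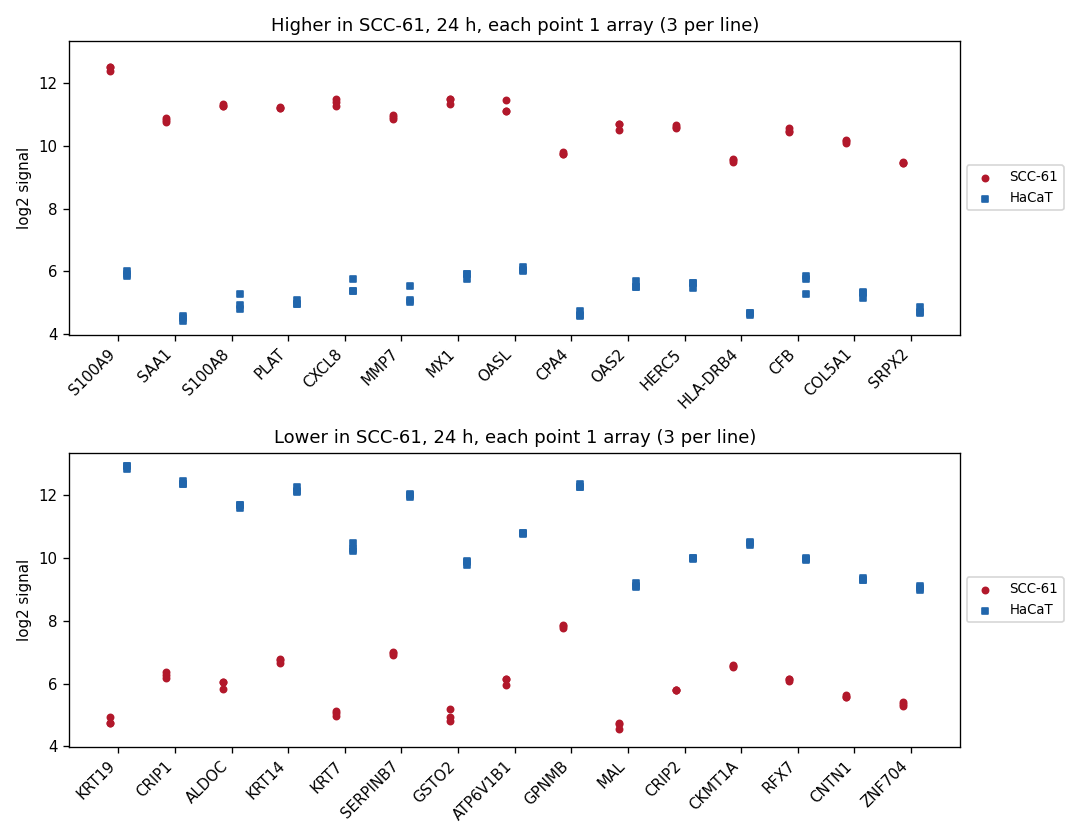
log2 signal on each array at 24 h for the 15 genes most higher (top) and the 15 most lower (bottom) in SCC-61 among genes detected on all 6 arrays; circles are the 3 SCC-61 arrays and squares the 3 HaCaT arrays. The arrays of a line cluster tightly beside the gap between the lines, from 12.39 to 12.50 in SCC-61 and 5.87 to 6.0 in HaCaT for S100A9.

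Interferon-stimulated genes were higher in SCC-61 nearly throughout. Of 56 tested, 53 were higher, 0 lower and 3 not past the threshold (94.6% called, median 2.10), and 45 differed by over 2-fold, against 11.8% of all genes. MX1, a dynamin-like antiviral GTPase, gave 11.32, 11.49 and 11.49 in SCC-61, against 5.77, 5.91 and 5.92 in HaCaT, a difference of 5.57 ± 0.07 (adjusted p 5.75e-31). OASL, of the oligoadenylate synthetase family, gave 11.10, 11.46 and 11.11 in SCC-61, against 6.06, 6.01 and 6.13 in HaCaT. HERC5, the ligase that attaches ISG15 to its targets, gave 10.55, 10.59 and 10.67 in SCC-61, against 5.64, 5.64 and 5.46 in HaCaT. These 3 genes were detected in HaCaT too, so their differences are measured on both sides.

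The antiviral enzyme RSAD2 (5.97), IFI27 (5.66), the chemokine CXCL10 (5.07) and OAS2 (5.06) followed, and the membrane tether BST2 differed by 4.64. OAS2 has other probes with smaller positive differences of 1.38 to 3.26. ISG15, the ubiquitin-like protein, differed by 3.67. The 3 genes of the list that did not pass were DTX3L (0.23), SP100 (0.09) and PLSCR1 (0.06). Of 5 leukocyte markers tested 3 were higher and 2 did not pass (median 0.555, or 0.187 with bounds). Of these 5, 2 passed the detection rule only through SCC-61. The part of leukocyte markers in the interferon result was not tested.

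Promoters of the group are shown because its members mostly moved together and many hold a sequence known to bind interferon-regulated factors. This sequence is the core of the interferon-stimulated response element. The letters GAAA, any pair of bases and GAAA again, searched on both strands with overlaps allowed, stood in the 250 bases before the start of 25 of 46 tested genes of the list with a promoter in RefSeq (54.3%), against 839 of 27305 promoters in all (3.07%). Among MHC class I genes 7 of 18 held it (38.9%). The interferon list was drawn up from genes known to respond to interferon, so its share describes the list and not these arrays. PLSCR1, which did not pass (0.06), held a match too. Matching bases are in capitals, in GRCh38.p14 and 5′ to 3′ on the gene's strand.
HERC5: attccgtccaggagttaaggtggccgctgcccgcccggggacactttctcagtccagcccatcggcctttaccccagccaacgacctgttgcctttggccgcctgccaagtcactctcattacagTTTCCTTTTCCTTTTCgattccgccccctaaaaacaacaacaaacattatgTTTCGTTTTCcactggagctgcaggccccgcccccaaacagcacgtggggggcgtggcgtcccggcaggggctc
BST2: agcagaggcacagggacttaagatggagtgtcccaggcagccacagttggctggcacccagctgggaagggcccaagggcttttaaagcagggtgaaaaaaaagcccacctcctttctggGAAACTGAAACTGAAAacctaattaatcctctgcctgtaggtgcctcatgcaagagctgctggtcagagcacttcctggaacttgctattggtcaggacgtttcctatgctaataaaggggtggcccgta
ISG15: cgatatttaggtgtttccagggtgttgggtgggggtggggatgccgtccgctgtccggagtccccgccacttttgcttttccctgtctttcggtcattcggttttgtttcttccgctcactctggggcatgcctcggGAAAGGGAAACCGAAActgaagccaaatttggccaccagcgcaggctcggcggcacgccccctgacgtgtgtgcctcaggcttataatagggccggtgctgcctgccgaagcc
These windows are chr4:88456869-88457118 (plus strand) for HERC5, chr19:17405631-17405880 (minus strand) for BST2 and chr1:1013247-1013496 (plus strand) for ISG15, each ending at the base before the annotated start. HERC5 held 3 matches, BST2 and ISG15 2 each, and in each promoter some overlap. A match is a description of letters, not a measured binding site.

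Antigen presentation genes were higher as well. In the MHC class I pathway 19 of 20 genes were higher and 0 lower (median 1.47). HLA-B differed by 3.52, TAP2, which carries peptides into the endoplasmic reticulum with TAP1 (1.91), by 2.72, the immunoproteasome subunit PSMB9 by 2.65, and B2M, the common light chain, by 0.93. PSME1 (0.11) did not pass, although its other probe was called higher (0.59). HLA probes can share signal among the loci, so the identity of a single locus is uncertain.

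For MHC class II all 10 tested genes were higher, against 35.3% of all genes (median 2.71, or 2.38 with bounds). Of these 10, 3 passed the detection rule only through SCC-61. A further 6 genes of the list with a probe were not detected by the rule. HLA-DRB4 gave 9.54, 9.58 and 9.48 in SCC-61, against 4.62, 4.69 and 4.69 in HaCaT, a difference of 4.86 ± 0.11, and a dimmer probe of the same name was not different (-0.29). HLA-DMB, which helps load peptides, and HLA-DPA1 were detected only in SCC-61 and were at least 15.0-fold and 5.09-fold higher. The invariant chain CD74 (3.32) was detected on 1 HaCaT array. HLA-DRB4 is a gene that only some haplotypes carry, and which haplotypes the lines carry was not tested.

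Cytokines, chemokines and the feedback genes of NF-κB, a transcription factor of inflammation, were mostly higher. Of 23 cytokine and chemokine genes tested, 16 were higher and 5 lower (median 1.85, or 0.94 with genes detected in one line only at their bounds). CXCL8, the neutrophil attractant, gave 11.39, 11.26 and 11.48 in SCC-61, against 5.38, 5.75 and 5.37 in HaCaT, a difference of 5.88 ± 0.08 (adjusted p 3.56e-30), and a second probe gave 4.75. IL1B (5.43) and CCL5 (4.66) were high in SCC-61, and IL1A, IL6, IL32 and CCL20 were detected on no HaCaT array. The group was not uniform: IL1RN, the antagonist of IL1 (-2.98, with a dimmer probe at -0.29 that did not pass), and CCL2 (-2.40) were lower in SCC-61, and CXCL6 was detected only in HaCaT (at least 4.12-fold lower).

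In the NF-κB list 19 of 24 genes were higher and 1 was lower (median 1.05). The feedback inhibitors TNFAIP3 (2.15), ZC3H12A (1.98) and NFKBIA (1.08) rose together with the subunits RELB (detected only in SCC-61, at least 2.35-fold) and NFKB2 (1.30), while NFKB1 differed by 0.15 and RELA (-0.09) and REL (-0.22) did not pass. Complement gave 7 higher and 2 lower of 10. CFB, the protease of the alternative pathway, gave 10.44, 10.58 and 10.47 in SCC-61, against 5.29, 5.87 and 5.76 in HaCaT. C1S and C3 were detected only in SCC-61, at least 9.78-fold and 4.28-fold higher, and C5 was lower (-1.33).

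Genes of the extracellular matrix and its turnover formed the next group. Of 27 collagens and their modifying enzymes 19 were higher and 5 lower (median 1.19, or 1.08 with bounds), of 19 integrins and matrix adhesion genes 15 higher and 1 lower (median 1.31, or 1.21 with bounds), of 19 hemidesmosome and basement membrane genes 16 higher and 2 lower (median 0.93), and of 21 metalloproteinases and inhibitors 15 higher and 1 lower (median 0.91). COL5A1, a fibrillar collagen, gave 10.10, 10.17 and 10.14 in SCC-61, against 5.36, 5.16 and 5.33 in HaCaT, a difference of 4.85 ± 0.12. COL5A2 (at least 21.7-fold), COL8A1 (11.8-fold), COL3A1 (7.57-fold) and the cross-linking enzyme LOX (4.93-fold) were detected only in SCC-61. COL18A1 (-2.05) and the proteoglycan DCN (-1.89) were lower. Of 7 fibroblast markers tested 5 were higher and 2 lower, DCN among the lower. Of these 7, 4 passed the detection rule only through SCC-61. Of 12 fibroblast markers with a probe 7 to 8 were detected per SCC-61 array and 3 to 4 per HaCaT array. Their summed signals were 543 to 621 in SCC-61 and 412 to 457 in HaCaT. COL1A2, PDGFRA, PDGFRB and THY1 of this marker list were below the detection rule in both lines. The part of fibroblast markers in the matrix result was not tested.

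The fibronectin receptor subunit ITGA5 differed by 4.10, the matricellular proteins CCN2 and CCN1 by 2.84 and 2.64, and laminin-binding ITGB4 and ITGA6 by 1.35 and 1.03. The hyaluronan receptor CD44 was the 1 lower gene of its list (-0.12, adjusted p 0.0306), a call that several alternatives lost. Its other probes were unlike each other, at -0.63 (called lower) and 0.20 (did not pass). MMP7, matrilysin, led the proteases with 10.84, 10.93 and 10.98 in SCC-61, against 5.10, 5.53 and 5.02 in HaCaT, a difference of 5.70 ± 0.13. The collagenase MMP1 (4.05) followed, and the inhibitors TIMP3 (3.53), TIMP2 (3.11) and TIMP1 (2.14) were higher with the enzymes.

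MMP7 was the only 1 of 14 protease-list genes with a RefSeq promoter to hold the AP-1 motif TGACTCA, searched on both strands, in the 250 bases before its start (7.14%, against 4.16% of 27305 promoters). It is shown as the promoter of the leading protease, with the match, which lies on the other strand, in capitals, at chr11:102530748-102530997 (minus strand).
MMP7: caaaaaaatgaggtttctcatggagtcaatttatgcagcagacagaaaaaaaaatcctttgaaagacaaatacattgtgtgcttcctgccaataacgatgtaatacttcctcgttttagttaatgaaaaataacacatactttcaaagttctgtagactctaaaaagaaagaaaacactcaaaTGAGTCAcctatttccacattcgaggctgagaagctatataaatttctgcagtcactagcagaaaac

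Genes of coagulation and plasminogen activation differed throughout. All 14 tested genes of this list were called, 11 higher and 3 lower, with a median of 2.10. PLAT, tissue plasminogen activator, gave 11.19, 11.20 and 11.23 in SCC-61, against 5.08, 4.98 and 4.95 in HaCaT, a difference of 6.20 ± 0.08. SERPINE2, an inhibitor of thrombin and plasminogen activators, gave 10.55, 10.75 and 10.67 in SCC-61, against 6.17, 5.96 and 6.48 in HaCaT. Activator and inhibitor were both high in SCC-61. The urokinase receptor PLAUR (2.88), thrombomodulin THBD (3.93) and tissue factor F3 (2.47) were higher, and the contact factor F12 was lower (-1.14).

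A list of mesenchymal genes gave 11 higher and 4 lower of 16 (median 1.18, or 1.06 with bounds). VIM, the mesenchymal intermediate filament, gave 9.26, 8.86 and 9.06 in SCC-61, against 6.45, 6.44 and 6.33 in HaCaT, a difference of 2.65 ± 0.08, and its other probe was detected only in SCC-61. TWIST1 (at least 8.18-fold) and ZEB2 (1.34-fold) were detected only in SCC-61, and N-cadherin CDH2 differed by 1.41. SNAI2 (-0.36), TPM1 (-1.33, with other probes at -1.41, called, and at -0.23 and -0.30, not passing) and S100A4 (-3.67) were lower. CDH1, E-cadherin, gave 11.72, 11.70 and 11.80 in SCC-61, against 11.70, 11.68 and 11.66 in HaCaT, a difference of 0.06 ± 0.04 that did not pass (adjusted p 0.215) and did so (0.12) under cyclic loess normalization. Mucins and their glycosylation gave 15 higher and 2 lower of 19 (median 1.5, or 1.07 with bounds), with the adhesion molecule CEACAM1 (4.45) and MUC1 (2.48) among the higher ones. MUC4 was higher by its brighter probe (3.37) and did not differ past the threshold by the other (-0.03).

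The largest bounds were those of TFPI and MGST1 in SCC-61 and of galectin-7 in HaCaT. TFPI, the inhibitor of the tissue factor pathway, gave 12.07, 12.09 and 12.14 in SCC-61, against 3.50, 3.56 and 3.73 in HaCaT, and was at least 212-fold higher. MGST1, a microsomal glutathione transferase, gave 11.18, 11.30 and 11.30 in SCC-61, against 3.52, 3.66 and 3.34 in HaCaT, and was at least 118-fold higher. For KYNU, a tryptophan-degrading enzyme, the bound was 83.0-fold. The HaCaT values of TFPI and MGST1 lie below the dimmest detected probes.

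Next came the lysosomal protein LAMP3 (at least 42.0-fold), IL1A (36.5-fold), KRT6C (28.3-fold), the stress cytokine GDF15 (25.5-fold), the matrix protein ABI3BP (23.5-fold), the deiodinase DIO2 (22.3-fold) and IL6 (22.2-fold). These bounds hold for 24 h, and IL1A and KRT6C were detected on all 3 untreated HaCaT arrays at 2 h. A gene outside these rules was larger than most: COXFA4L3, a paralogue of a cytochrome c oxidase-associated subunit, gave 12.13, 12.17 and 12.15 in SCC-61, against 4.20, 4.36 and 4.51 in HaCaT, a difference of 7.79 ± 0.09. It was detected on 2 of 3 HaCaT arrays and was chosen after its values were seen.

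In HaCaT only, galectin-7 led. LGALS7B gave 3.58, 3.96 and 3.74 in SCC-61, against 11.61, 11.67 and 11.82 in HaCaT, and was at least 161-fold lower in SCC-61. Its near-identical copy LGALS7, whose probe may read the same transcripts, was at least 91.9-fold lower. Galectin-7 is a product of stratified epithelium, and the pair was bright in HaCaT and not detected in SCC-61. BMP7, a bone morphogenetic protein, gave 3.94, 3.76 and 3.84 in SCC-61, against 9.06, 9.07 and 9.16 in HaCaT (at least 26.5-fold lower). The others were LDOC1 (at least 18.6-fold lower), the barrier protein filaggrin FLG (15.9-fold), the suprabasal keratin KRT1 (14.9-fold), the WNT inhibitor APCDD1 (14-fold), PALM (13.4-fold), CEP15 (11.5-fold, with a dimmer probe that did not pass) and GALNT5 (7.90-fold).

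The cornified envelope list was split, with 11 of 29 genes higher, 15 lower and 3 not past the threshold (median -0.45), against 35.3% higher and 38.7% lower over all genes. The small proline-rich proteins SPRR2D (at least 8.74-fold), SPRR2A (3.42-fold) and SPRR3 (2.50-fold) were detected only in SCC-61, and the serpins SERPINB3 (2.74) and SERPINB4 (1.70), which are near-identical, were higher. FLG, KRT1, KRT10 (-1.24), the cross-linking transglutaminase TGM1 (-1.88), involucrin IVL (-1.88) and trichohyalin TCHH (-3.03) were lower. Of 20 desmosome and cadherin genes 4 were higher, 10 lower and 6 not past the threshold (median -0.22), with DSC3 (-1.11), PKP1 (-1.15) and JUP (-1.03) lower and P-cadherin CDH3 higher (0.48).

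**Figure D3:**
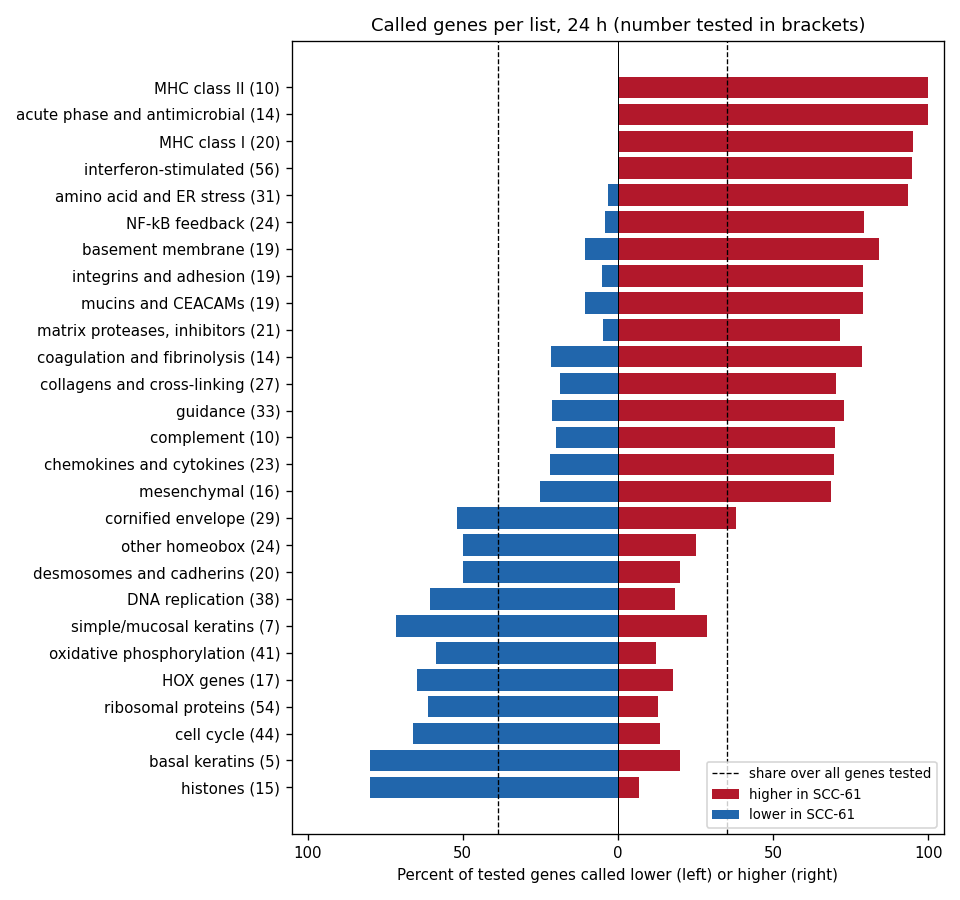
Percent of tested genes in each list that were higher (right, red) or lower (left, blue) in SCC-61 at 24 h, with the number tested in brackets; dashed lines mark the shares over all genes, 35.3% higher and 38.7% lower. The MHC class II and antimicrobial lists reach 100% higher, and the histone list has 12 of 15 genes lower.

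The other genes most reduced in SCC-61 came from many classes. CRIP1, a LIM-domain protein, gave 6.18, 6.37 and 6.27 in SCC-61, against 12.35, 12.36 and 12.46 in HaCaT, a difference of -6.12 ± 0.08, and its relative CRIP2 differed by -4.19. The glycolytic aldolase ALDOC gave 5.83, 6.06 and 6.06 in SCC-61, against 11.69, 11.68 and 11.59 in HaCaT, a difference of -5.67 ± 0.08. SERPINB7, an epidermal serpin, gave 7.02, 6.90 and 6.97 in SCC-61, against values between 11.93 and 12.03 in HaCaT. Each of these was detected on all arrays of both lines and bright in HaCaT. GSTO2, a glutathione transferase (-4.86), ATP6V1B1, a proton pump subunit (-4.71), the melanosomal and lysosomal glycoprotein GPNMB (-4.47), the raft protein MAL (-4.44), the mitochondrial creatine kinase CKMT1A (-3.91, near-identical to CKMT1B), the transcription factor RFX7 (-3.84), the adhesion molecule CNTN1 (-3.74) and the zinc finger gene ZNF704 (-3.70) completed the 15.

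On the other side, CPA4, a carboxypeptidase (5.11), and SRPX2, a secreted sushi-repeat protein (4.70), were the remaining genes of the 15 most higher. Among positional identity genes, 82.4% of HOX genes and 75% of other homeobox and patterning genes were called, against 74% of all genes. Of 17 HOX genes 11 were lower and 3 higher (median -0.57), with HOXC4 (-2.79), HOXC6 (-2.08, its other probe at -0.28 not passing), HOXC13 (-2.07) and HOXA2 (-2.01) lower and HOXD10 (0.89) higher. HOXD4 (0.40) and HOXB6 (0.45) were called higher, but both calls were lost under at least 1 alternative, and the other probe of HOXB6 was called lower (-0.39). Of 24 other homeobox and patterning genes 6 were higher and 12 lower. PITX1 (2.00) and MSX1 (detected only in SCC-61, at least 4.32-fold) were higher, while DLX5 (-2.49) and DLX3 (-1.59) were lower.

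Genes of growth and division were mostly lower in SCC-61 at 24 h, by small amounts. Of 44 cell cycle genes 29 were lower and 6 higher (median -0.47), and of 38 DNA replication genes 23 were lower and 7 higher (median -0.42). The survivin gene BIRC5 differed by -1.61, CCNB2, a mitotic cyclin, by -1.25, the licensing factor CDT1 by -2.05 and thymidylate synthase TYMS by -1.27. AURKA (0.38) and RRM2 (0.54), a ribonucleotide reductase subunit, were higher. Among 15 histone genes 12 were lower and 1 higher (median -0.93), H2BC21 (-1.52) and H4C8 (-1.42) most. Ribosomal proteins gave 33 lower and 7 higher of 54 (median -0.20) and respiratory chain genes 24 lower and 5 higher of 41 (median -0.17). RPL39L, a ribosomal protein paralogue, stood apart at -5.56, and was detected on 1 of 3 SCC-61 arrays.

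Cell cycle regulators varied singly. MYC gave 9.94, 9.97 and 9.99 in SCC-61, against 8.92, 8.82 and 8.67 in HaCaT, a difference of 1.16 ± 0.07. CDKN2A, which encodes p16 and p14ARF, gave 7.69, 7.61 and 7.66 in SCC-61, against 6.66, 6.77 and 6.91 in HaCaT (0.87 ± 0.10), and its neighbour CDKN2B was lower (-2.59). CCND1 gave 10.84, 11.08 and 10.91 in SCC-61, against 10.85, 10.87 and 10.86 in HaCaT, so the arrays overlapped and the difference of 0.09 ± 0.05 did not pass (adjusted p 0.136), although it did so under cyclic loess (0.14) and median scaling (0.12). EGFR gave 10.45, 10.24 and 10.39 in SCC-61, against 10.43, 10.36 and 10.28 in HaCaT (0.00 ± 0.06, adjusted p 0.960), but its other probes gave 0.91 and 0.81, both called, so the probes of this gene disagree. In a list of immediate-early, ERK feedback and MYC-related genes 18 of 28 were higher and 7 lower (median 0.65). The ERK feedback genes DUSP6 (1.35) and SPRY1 (1.85) and the AP-1 subunit FOSL1 (1.76) were higher, and SPRED1, another inhibitor of the pathway, was lower (-0.98).

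Amino acid stress and the unfolded protein response gave 29 higher and 1 lower of 31 genes (median 1.38). ASNS, asparagine synthetase, gave 10.52, 10.73 and 10.68 in SCC-61, against 8.11, 8.19 and 8.26 in HaCaT, a difference of 2.46 ± 0.06. The chaperones HSPA5 (2.24) and HSP90B1 (1.86) of the endoplasmic reticulum, the folate enzyme MTHFD2 (2.16), the serine enzyme PSAT1 (1.74) and the transporters SLC3A2 (2.05) and SLC7A5 (1.69) rose with it, and the cystine transporter SLC7A11 was detected only in SCC-61 (at least 5.26-fold higher). ATF4 (0.27, its other probes at 0.09 and 0.16 not passing) and DDIT3 (0.65), transcription factors of the response, differed less, and the arginine transporter SLC7A1 was lower (-0.93). The ATF4 and CHOP response element TGATGNAA, searched on both strands, stood before the start of ASNS, here in capitals at chr7:97872409-97872658 (minus strand), and in 1 of 28 genes of the list in all (3.57%, against 3.19% of 27305 promoters).
ASNS: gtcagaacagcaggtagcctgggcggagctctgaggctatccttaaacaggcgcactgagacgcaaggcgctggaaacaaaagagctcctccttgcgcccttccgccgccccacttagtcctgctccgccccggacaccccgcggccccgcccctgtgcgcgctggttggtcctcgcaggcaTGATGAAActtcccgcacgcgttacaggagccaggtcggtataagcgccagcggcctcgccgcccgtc

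Over all genes 35.3% were higher and 38.7% lower, and redox and retinoid genes went both ways too. Of 41 glutathione, thioredoxin and NRF2 genes 14 were higher and 21 lower, with MGST1, SLC7A11 and TXNRD1 (2.43) higher and GSTM1 (-2.26, of a family that shares signal), GSTZ1 (-1.96) and CBR3 (-1.91) lower. Of 30 aldehyde dehydrogenase, cytochrome and retinoid genes 12 were higher and 15 lower, from CYP1A1 (detected only in SCC-61, at least 4.79-fold) to ALDH3B2 (-3.12). Because hydrocortisone was in the SCC-61 medium only, targets of the glucocorticoid receptor were listed as well: 11 of 22 were higher and 9 lower (median 0.13), with KLF9 (3.22), SGK1 (1.72) and FKBP5 (0.77) higher and TSC22D3 (-1.35), GLUL (-1.58) and MT1F (-2.18) lower. GKN1, which encodes AMP-18 itself, gave 6.78, 6.73 and 6.69 in SCC-61, against 4.41, 4.31 and 4.37 in HaCaT (2.37 ± 0.11), and was detected on 1 HaCaT array. CCKBR, the gastrin receptor gene, was detected on 0 of 6 arrays, and GKN2 was below the detection rule.

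The differences were set beside those of the same lines at 2 h to see which belonged to 24 h. Of 11523 genes, 5553 (48.2%) were called in the same direction at both times and 743 (6.45%) in opposite directions, 373 of these higher at 24 h. Testing the difference of the differences, 5586 genes (48.5%) had a line difference at 24 h unlike that at 2 h, 2686 (23.3%) more positive and 2900 (25.2%) more negative. With no slide or scan in the labels, time and batch cannot be told apart.

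**Figure D4:**
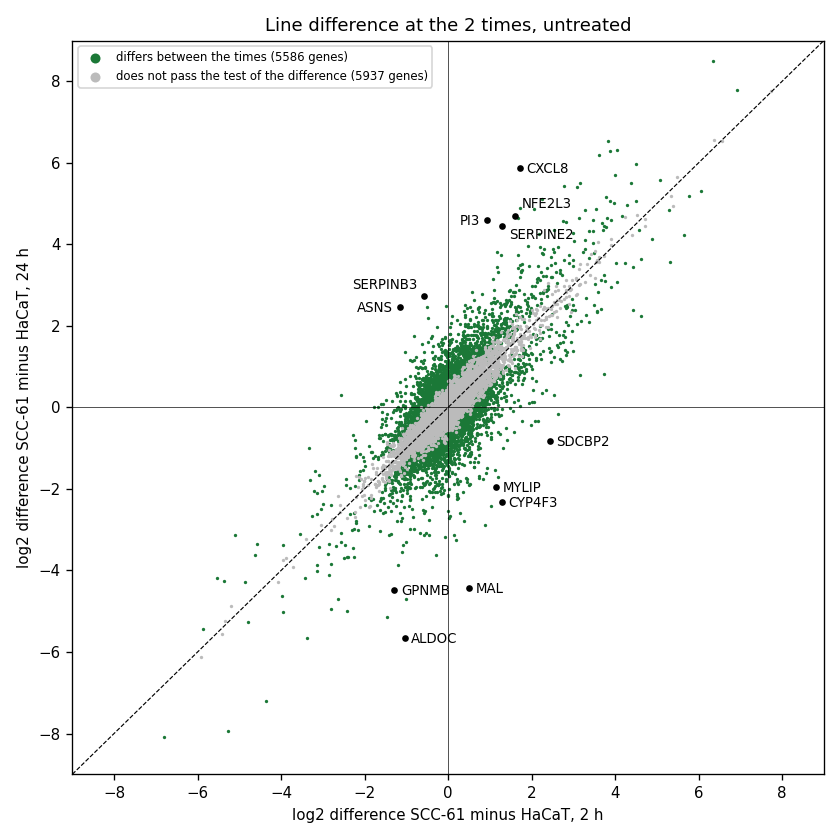
Line difference (SCC-61 minus HaCaT, log2) at 2 h on the horizontal axis and at 24 h on the vertical axis for 11523 genes, untreated cells; green genes, 5586, passed the test of the difference between the times and the dashed line marks equality. Most genes lie along the line, ALDOC, MAL and GPNMB below it, and CXCL8, PI3 and ASNS above it.

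Among genes detected on all 12 untreated arrays, the 6 whose difference was more positive by most at 24 h were CXCL8, PI3, ASNS, SERPINB3, SERPINE2 and NFE2L3, and the 6 more negative by most were MAL, ALDOC, CYP4F3, SDCBP2, GPNMB and MYLIP. In 11 of these 12 genes the HaCaT mean differed more between the times than the SCC-61 mean, the exception being SERPINB3 (2.01 in SCC-61 and -1.29 in HaCaT). CXCL8 in SCC-61 had means of 10.57 at 2 h and 11.38 at 24 h, and in HaCaT 8.86 at 2 h and 5.50 at 24 h. PI3 in SCC-61 had 10.26 at 2 h and 10.42 at 24 h, and in HaCaT 9.33 at 2 h and 5.82 at 24 h. NFE2L3, a CNC transcription factor, and SERPINE2 followed the same course, the HaCaT mean being lower at 24 h than at 2 h by 2.71 and 3.15 log2 units.

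ASNS and SERPINB3 crossed. ASNS gave 8.94, 8.82 and 8.85 at 2 h in SCC-61, against 10.11, 10.01 and 9.94 in HaCaT, a difference of -1.15 that became 2.46 at 24 h (difference of differences 3.61, adjusted p 9.77e-23). The arrays of the lines were separate at both times, in opposite order. Of the 31 amino acid stress genes 25 were more positive at 24 h and 0 more negative, and their median difference was 0.22 at 2 h and 1.38 at 24 h. The median change of the list between 2 h and 24 h was 0.40 in SCC-61 and -0.56 in HaCaT.

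MAL, CYP4F3, SDCBP2 and MYLIP crossed the other way, SDCBP2 with other probes at -0.89 (called) and -0.27 (did not pass) at 24 h. MAL gave 6.23, 6.29 and 6.22 at 2 h in SCC-61, against 5.91, 5.77 and 5.54 in HaCaT, so its difference was 0.51 at 2 h and -4.44 at 24 h. CYP4F3, which inactivates leukotriene B4, had a difference of 1.28 at 2 h and -2.32 at 24 h. MYLIP, a ligase for the LDL receptor, had 1.15 at 2 h and -1.96 at 24 h. In these genes HaCaT was higher at 24 h than at 2 h, by 3.38 for MAL, 4.29 for CYP4F3 and 2.99 for MYLIP on the log2 scale. ALDOC was lower in SCC-61 at both times (-1.04 at 2 h and -5.67 at 24 h), and its HaCaT mean went up by 4.86 log2 units between them.

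**Figure D5:**
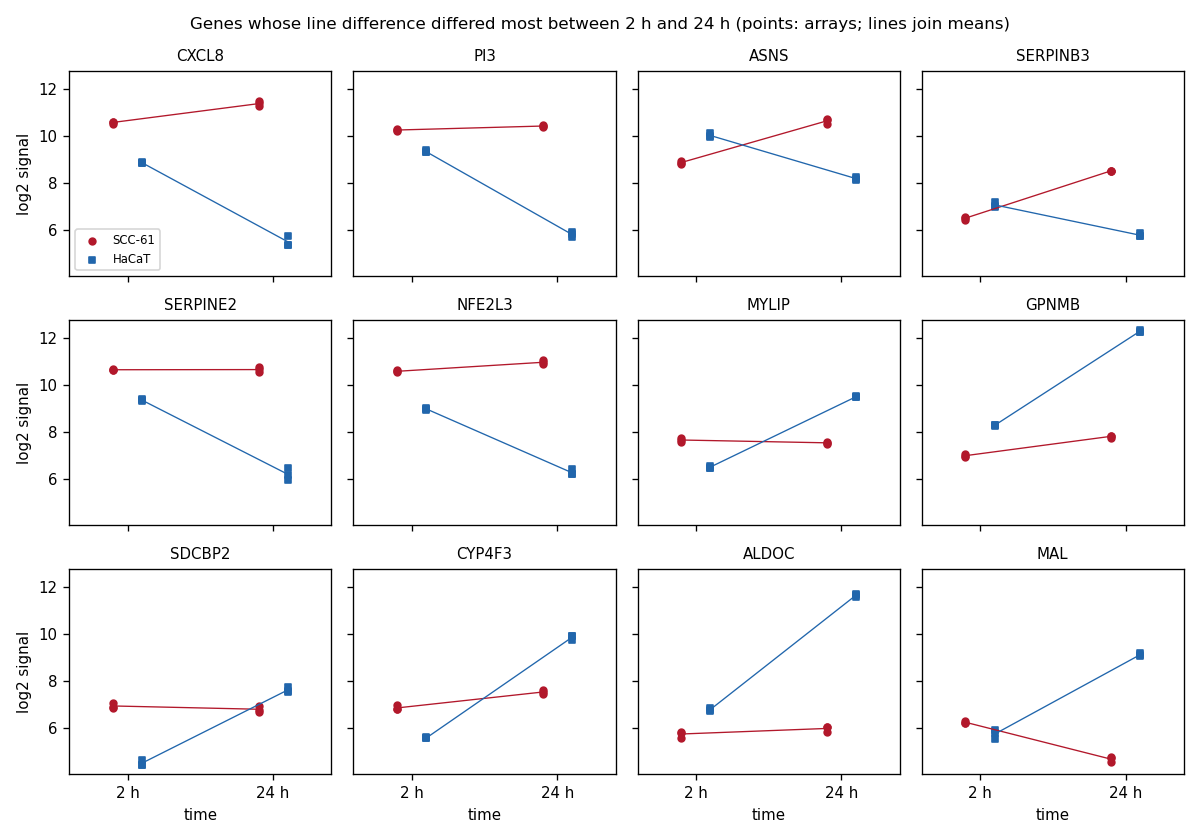
log2 signal on each untreated array at 2 h and 24 h for the 12 genes whose line difference changed most; circles are SCC-61 arrays, squares HaCaT arrays (3 per line and time), and lines join the means. The HaCaT means of ALDOC, GPNMB, CYP4F3, MAL, MYLIP and SDCBP2 are higher at 24 h than at 2 h, and those of CXCL8, PI3, NFE2L3, SERPINE2, SERPINB3 and ASNS are lower.

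Lists differed in how far they belonged to 24 h. Histone genes had a median difference of 0.16 at 2 h and -0.93 at 24 h, with 12 of 15 more negative at 24 h, and their median change between the times was 0.19 in SCC-61 and 1.27 in HaCaT. Cell cycle genes had medians of 0.07 at 2 h and -0.47 at 24 h, with 37 of 44 more negative, and here the median change was -0.45 in SCC-61 and -0.01 in HaCaT. MHC class II genes had medians of 1.14 at 2 h and 2.71 at 24 h, 7 of 10 more positive, with a median change of 1.81 in SCC-61 and 0.11 in HaCaT. Interferon-stimulated genes were high at both times (medians 1.97 at 2 h and 2.10 at 24 h), 27 being more positive and 10 more negative at 24 h.

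Single genes named above varied between the times as well. The CDK inhibitor CDKN2B differed by 0.30 at 2 h and -2.59 at 24 h, MYC by -0.57 at 2 h and 1.16 at 24 h, and CDH1 by 0.62 at 2 h and 0.06 at 24 h. The hypoxia gene BNIP3 differed by 3.15 at 2 h and 0.79 at 24 h. Several keratins kept their direction at both times: KRT14 differed by -5.88 at 2 h and -5.42 at 24 h, KRT19 by -6.80 at 2 h and -8.08 at 24 h, and KRT7 by -4.78 at 2 h and -5.27 at 24 h. KRT15 did not, with 0.77 at 2 h and -0.99 at 24 h. Detection in one line only was read at 24 h. On all 3 untreated HaCaT arrays at 2 h IL1A (mean 6.72), KRT6C (4.73), SPRR2D (5.04) and SPRR2A (4.81) were detected. FLG (4.61) was detected on all 3 untreated SCC-61 arrays at 2 h. TFPI, MGST1 and KYNU were detected on 0 untreated HaCaT arrays at 2 h.

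The line difference was also read on the AMP-18-treated arrays of 24 h, other samples of the same lines. It includes any response to AMP-18 that differs between the lines, and the labels do not say whether the cultures were separate. Of 11523 genes 7714 (66.9%) were called in the same direction with and without AMP-18, and 12 (0.104%) in opposite directions. KRT19 differed by -8.06 with AMP-18, S100A9 by 6.11, MX1 by 6.60, CXCL8 by 6.02, ASNS by 3.15 and ALDOC by -5.63. The median difference of the interferon list was 2.35 with AMP-18 and 2.10 without, and of the MHC class II list 2.56 with AMP-18 and 2.71 without. All 8 group means were fitted together, so the treated and untreated contrasts share the estimate of the spread but no arrays.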

How the data were processed

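The authors deposited log2 expression values and detection p-values from Illumina HT-12 v4 bead arrays, 1 column of each per array, and the submitters' processing notes name GenomeStudio 2011.1. The normalization is not given in the sources used here. All 24 deposited log2 columns share a maximum of 13.96 and a median near 4.22, so the values share 1 distribution, and a shift of all genes in one line could not be seen. Columns were matched to samples by accession. Probe names came from the platform annotation, updated through RefSeq; probes with several names or none were tested but not named.

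With limma 3.58.1 in R 4.3.3, 8 group means were fitted on 24 arrays with a trended variance, and p-values were adjusted by Benjamini-Hochberg over 19576 probes at 0.05. A t-test per probe and other settings are in the closing section. The fit was tested on simulated data with 200 changed probes per run, far fewer than differed here. Of 2-fold changes it found 97.3% for the 24 h comparison and 86.2% for the difference between the times. Of 1.25-fold changes it found 23.7% and 4.17%, with 6.58% and 13.8% of calls false, so small differences are the least certain. Named genes were the 15 most higher and 15 most lower genes detected on all 6 arrays, 10 bounds in each line, the 6 genes per direction whose difference varied most with time, fixed genes, and the 3 genes most changed per list and direction; other list members are named as examples chosen with their values known. The members and lists were chosen with earlier results of these data known.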

Additional observations from a re-analysis of the deposited data

Results flagged for a closer look

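The line difference at 24 h was tested against that at 2 h, and 5586 genes differed between the times by limma with Benjamini-Hochberg adjustment. Of the 12 genes named for this, the difference was more positive at 24 h for CXCL8 (4.16), PI3 (3.68), ASNS (3.61), SERPINB3 (3.30), SERPINE2 (3.16) and NFE2L3 (3.10). It was more negative at 24 h for MAL (-4.94), ALDOC (-4.63), CYP4F3 (-3.60), SDCBP2 (-3.25), GPNMB (-3.19) and MYLIP (-3.11). These values are differences of log2 differences, with 3 arrays per line and time.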

How the results depend on the processing

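Of the counts of called probes, 1 moved by over 1.5 times: the number whose line difference at 24 h differed from that at 2 h by over 2-fold was 945 with a constant of 16 added to the linear signal, against 1453 as reported. The 24 h count of 13736 probes was 13085 to 13214 without each array in turn, and the 24 h against 2 h count of 8515 was 7888 to 8262. The labels give the same replicate numbers to each line, but same-numbered samples did not deviate together (correlations 0.0547, -0.0655 and -0.0563), and with the replicate block the counts were 13683 and 8436. A t-test per probe gave 12856 probes unadjusted and 11875 after Benjamini-Hochberg adjustment. The paper lists a t test among its general statistics, but ranked the genes of the arrays by Fisher's ratio. Of 59 list medians, 23 moved by more than the typical standard error of their genes with the constant added. With a mean over the probes of a gene 18 moved, and under cyclic loess 9. In an alternative chosen after seeing the data, 10 moved with genes detected in one line only at their lower bounds. The sign of the median changed for 3 lists under cyclic loess, 3 with a mean over the probes and 1 under median scaling. No named gene reversed in direction under the alternatives run. Weak calls were lost under at least 1 alternative for ADAMTS1, CD44, FOXC2, HES1, HOXB6, HOXD4, JAG2, LAGE3, MAML1, NDUFS1, S100A10 and TPCN2, and the cause was not tested. Signal near background limits the dim genes.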
